A study of Mus musculus with 22 samples.

Results

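Cones of the mouse retina at postnatal day 13 (P13) were compared with cones at postnatal day 7 (P7) across all genes of the deposited expression table. The 4 libraries were chosen by their labelled cell type and age, 2 at P13 and 2 at P7, out of 22 libraries in 11 groups of sorted rods, cones and bipolar cells. Both cone groups are labelled only as retina, cones and an age. The labels give no strain, genotype, reporter line, sex, number of animals or treatment, and they do not say whether the 2 libraries of an age stem from different animals. The p-values therefore measure only the spread between these libraries, which may be technical. RNA was taken from sorted cells and amplified linearly before library preparation. The markers of the label were present: Opn1sw and Arr3 were at 6941 and 4536 CPM (reads of a gene scaled to the effective library size) or more in both P13 libraries and at 3748 and 1971 CPM or more in both P7 libraries. Drd4, the dopamine D4 receptor gene, was at 313 and 145 CPM in the P13 cones and at 15.5 and 4.52 CPM in the P7 cones; rods expressed it too at P13.

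Cones detect light with an opsin that activates the transducin Gnat2, which in turn activates the phosphodiesterase Pde6c and closes the cyclic nucleotide-gated channel Cnga3 and Cngb3. Recovery needs opsin phosphorylation by Grk1, capping by the arrestin Arr3, and synthesis of cyclic GMP by guanylate cyclases. Mouse cones make a short-wavelength opsin, Opn1sw, early, and a middle-wavelength opsin, Opn1mw, later and mostly in the dorsal retina. Between the ages compared here photoreceptors extend their outer segments and complete their ribbon synapses, and the eyes open around the later age.

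The cone libraries held 49103598 and 44577611 reads at P13 and 45590086 and 50807112 reads at P7. Mitochondrially encoded transcripts made up 17.4% and 17.5% of reads at P13 and 6.14% and 4.61% at P7. Reads were found for 12369 and 12502 genes at P13 and for 13438 and 13136 genes at P7. Libraries of the same age differed beyond sampling noise, with a chi-square per gene of 124 at P13 and 104 at P7, so no library was counted as a repeat of another. Their log2 CPM values correlated across genes at 0.867 at P13 and 0.951 at P7; genes are not independent replicates.

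Few genes passed the tests, and most of those with substantial expression were higher at P13. Calls needed a log2 difference of at least 1 and an adjusted p (Benjamini-Hochberg, across the 13410 genes tested) under 0.05. In the limma fit of all 22 libraries, which pools the spread of 11 groups, 29 genes were higher at P13 (0.216% of genes tested) and 30 were lower (0.224%). In the fit of the 6 cone libraries, which takes the spread from cones of P7, P13 and P30, 32 genes were higher (0.239%) and 101 were lower (0.753%). Both fits called 7 genes higher (0.0522%) and 13 lower (0.0969%). Another limma fit gave each value a weight from its recovered read count, which the deposited table allows because its values step in whole reads. It was added after the data were seen and used the 6 cone libraries; it called 76 genes higher (0.667% of 11400 tested) and 13 lower (0.114%). With plain read totals in place of the authors' scaling, the split was 22 higher and 88 lower with the pooled spread and 34 higher and 29 lower in the weighted fit. Of the 29 genes higher with the pooled spread, 26 were also higher in the weighted fit, and of the 30 lower ones, 4 were also lower among the 19 that the weighted fit tested.

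These counts leaned on single libraries. Without the first or the second P7 library, the pooled fit called 17 and 10 genes higher and 5 and 7 lower. Without the first or the second P13 library it called 16 and 21 higher and 37 and 39 lower. The counts called with both spreads were 0 in each direction without either P13 library. In the weighted fit, leaving out the first or second P7 library left 22 and 17 genes higher and 9 and 2 lower, and leaving out the first or second P13 library left 25 and 35 higher and 3 and 1 lower. The 2 P13 libraries did not overlap the 2 P7 libraries in 2736 genes on the higher side (20.4% of genes tested) and 3201 on the lower side (23.9%), and those shares are the background for the counts of non-overlapping list members given for each gene group.

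**Figure D1:**
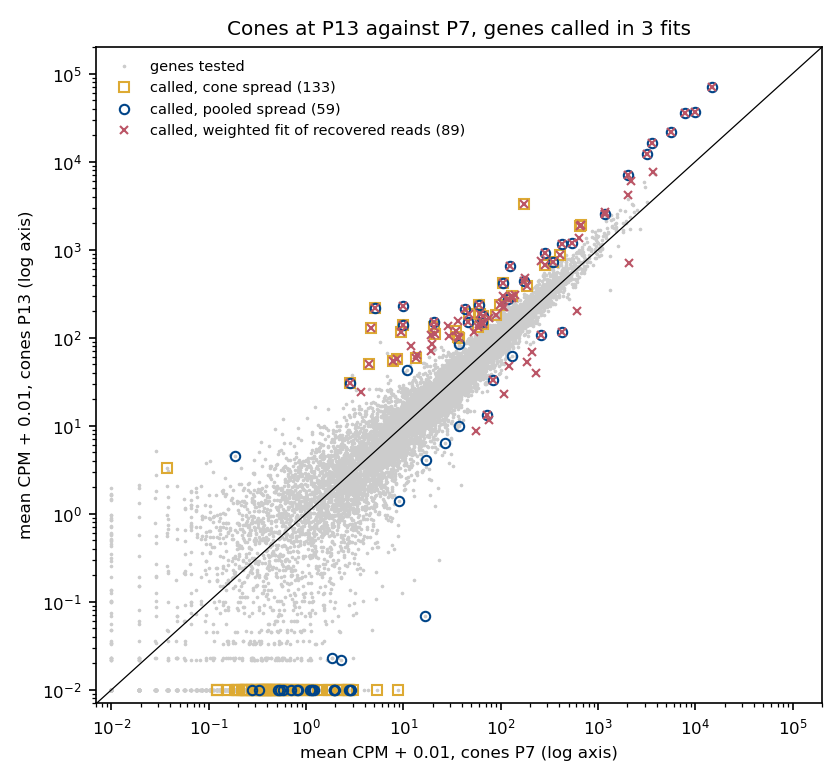
Mean level of each tested gene in cones at P13 (vertical axis, CPM + 0.01, log axis) and at P7 (horizontal axis, same unit), with genes called by the pooled spread (59), the cone spread (133) and the weighted fit (89) marked. The marked genes along the bottom edge had no reads in either P13 library, and most marked genes above 10 CPM at P7 lie over the diagonal.

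Among opsins, Opn1mw showed the largest difference of any cone phototransduction gene. Opn1mw was at 2788 and 3868 CPM in the P13 cones and at 246 and 98.4 CPM in the P7 cones. Both P13 libraries lay far above both P7 libraries, although the P7 pair differed 2.5-fold within itself. The log2 difference was 4.40 ± 0.48 (SE) with the cone spread (adjusted p = 0.0376) and 4.40 ± 0.32 in the weighted fit (adjusted p = 0.000117, called without any 1 of the 4 libraries). The pooled spread gave a SE of 1.48 and an adjusted p of 0.276; rods, where Opn1mw had 0.0351 and 5.13 CPM at P13 and no reads at P7, enter that spread. In bulk libraries, more cells with a transcript and more transcript per cell cannot be told apart.

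Opn1sw was at 7523 and 6941 CPM in the P13 cones and at 3748 and 3944 CPM in the P7 cones. The libraries of the ages did not overlap, and those within an age were close. The log2 difference of Opn1sw was 0.91 ± 0.12 in the weighted fit, with an adjusted p of 0.00364 but below the minimum log2 difference of 1, and its adjusted p was 0.404 with the cone spread and 0.879 with the pooled spread. At P30, Opn1mw reached 4396 and 5284 CPM and Opn1sw 10848 and 9818 CPM.

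The promoter windows of both opsins and of Gnat2 are printed because Opn1mw was higher at P13 by far more than Opn1sw or Gnat2. They come from RefSeq on GRCm38.p6, run 5′ to 3′ on the strand of the gene and cover 250 bases before the start and 50 after it: Opn1mw chrX:74127216-74127515 on the plus strand, Opn1sw chr6:29380464-29380763 on the minus strand and Gnat2 chr3:108092816-108093115 on the plus strand. Capitals mark TAATCC or its reverse complement GGATTA, the core recognised by the photoreceptor homeodomain factors Crx and Otx2. That core was searched on both strands, and 7.06% of 32817 RefSeq promoter windows of this length held it. Gnat2 held 1 match and the opsin windows held 0 each, which says only that these letters are not in these windows.
Opn1mw: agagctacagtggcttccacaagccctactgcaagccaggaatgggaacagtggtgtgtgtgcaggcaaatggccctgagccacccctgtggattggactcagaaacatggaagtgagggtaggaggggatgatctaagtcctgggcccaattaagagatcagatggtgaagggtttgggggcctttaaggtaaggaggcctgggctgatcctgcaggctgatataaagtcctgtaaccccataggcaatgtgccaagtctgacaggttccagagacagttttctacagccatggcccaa
Opn1sw: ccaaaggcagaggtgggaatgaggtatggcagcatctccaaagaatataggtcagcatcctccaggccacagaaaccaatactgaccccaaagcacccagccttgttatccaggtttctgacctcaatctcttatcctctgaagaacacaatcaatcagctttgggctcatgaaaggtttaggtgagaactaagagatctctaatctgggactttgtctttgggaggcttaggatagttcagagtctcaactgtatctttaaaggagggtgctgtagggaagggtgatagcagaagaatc
Gnat2: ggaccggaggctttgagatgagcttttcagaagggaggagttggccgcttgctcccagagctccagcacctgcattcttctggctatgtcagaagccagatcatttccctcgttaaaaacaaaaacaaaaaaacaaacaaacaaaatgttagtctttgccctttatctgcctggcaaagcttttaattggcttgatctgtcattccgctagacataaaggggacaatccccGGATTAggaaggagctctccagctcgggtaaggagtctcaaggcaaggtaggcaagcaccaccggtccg

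The cone phototransduction list as a whole lay toward higher levels at P13, with log2 differences from -0.66 to 4.40. Of its 21 genes, 17 had both P13 libraries above both P7 libraries and 0 had them below, against 20.4% and 23.9% of all genes, and the median log2 difference was 0.76 against -0.06 over all genes tested. The pooled spread called 0 members, the cone spread 1 (Opn1mw) and the weighted fit 5 of the 20 it tested: Opn1mw, Pde6c, Gnat2, Grk1 and Arr3. With plain read totals, which moved the median of all genes by -0.37 on the log2 scale, the list median was 0.39.

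Transduction and shut-off genes of this list are given in the order of the cascade. Gnat2, the cone transducin alpha subunit, was at 4038 and 4240 CPM at P13 and 1950 and 2144 CPM at P7 (log2 difference 1.02 ± 0.12, weighted adjusted p = 0.00261). Its partners Gnb3 and Gngt2 were at 1755 and 1952 CPM and at 2445 and 2558 CPM at P13, against 1567 and 1201 CPM and 1364 and 1374 CPM at P7. Neither partner was called in any of the 3 fits, although their libraries did not overlap. Pde6c, the catalytic phosphodiesterase subunit, was at 7394 and 7815 CPM at P13 and 3580 and 3822 CPM at P7 (1.04 ± 0.11, weighted adjusted p = 0.00137). Its inhibitory subunit Pde6h was at 4409 and 5902 CPM at P13 and 2888 and 3149 CPM at P7, a log2 difference of 0.76. Of the channel genes, Cnga3 was at 264 and 275 CPM at P13 and 188 and 241 CPM at P7, and Cngb3 at 835 and 1048 CPM at P13 and 653 and 740 CPM at P7.

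Grk1, the opsin kinase, was at 1349 and 1363 CPM at P13 and 632 and 646 CPM at P7 (1.09 ± 0.15, weighted adjusted p = 0.00609). Arr3, cone arrestin, was at 4536 and 7461 CPM at P13 and 1971 and 2347 CPM at P7 (1.43 ± 0.21, weighted adjusted p = 0.00741). The P13 libraries of Arr3 were 1.64-fold apart, and its call held in 1 of 4 fits that left out a library. Pde6c kept its call in 2 of those 4, Gnat2 in 1 and Grk1 in 0. Calcium feedback genes did not share the pattern: Guca1a was at 853 and 1189.5 CPM at P13 and 1153 and 1004 CPM at P7, and Guca1b at 228 and 288 CPM at P13 and 170 and 240 CPM at P7, with overlapping libraries for both. Rgs9, which speeds transducin shut-off, was at 18.6 and 27.3 CPM at P13 and 52.4 and 24.4 CPM at P7, also overlapping.

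**Figure D2:**
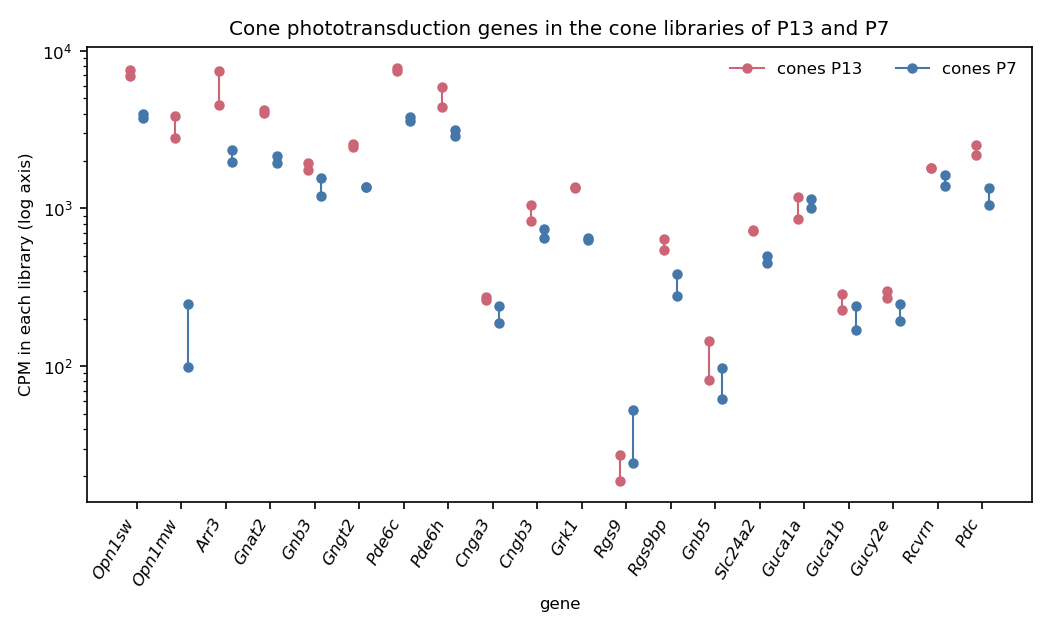
CPM (log axis) of 20 cone phototransduction genes in each of the 2 cone libraries at P13 (left of each pair) and the 2 at P7 (right), with a line joining the libraries of an age. Opn1mw shows the widest gap, with 2788 and 3868 CPM at P13 against 246 and 98.4 CPM at P7, while Guca1a, Guca1b, Gnb5 and Rgs9 overlap.

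Cone identity genes gave no calls in any of the 3 fits. Of 25 tested members, 5 had non-overlapping libraries on the higher side and 6 on the lower side, near the background shares, and the median log2 difference was 0.14, which turned to -0.22 with plain read totals. Thrb, the thyroid hormone receptor that specifies middle-wavelength cones, was at 515 and 574 CPM at P13 and 682 and 647 CPM at P7. Rxrg, a retinoid receptor that represses the short-wavelength opsin, was at 129 and 91.3 CPM at P13 and 95.4 and 101 CPM at P7. The photoreceptor homeobox genes Crx and Otx2 were at 2249 and 2028 CPM and at 752 and 577 CPM at P13, against 1815 and 2055 CPM and 880 and 879 CPM at P7. All 4 had adjusted p-values of 0.309 or more with the pooled spread.

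Rod phototransduction transcripts were also higher in the P13 cone libraries, and the largest of these differences was close to that in rods. Of 22 members of the rod list, 17 had non-overlapping libraries on the higher side and 1 on the lower side, and the median log2 difference was 0.79 in cones and 1.01 in rods. The pooled spread called 1 member, the cone spread 3 and the weighted fit 6. Over the same days rods themselves had 755 genes called higher (5.63%) and 941 called lower (7.02%) with the pooled spread.

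Gnat1, the rod transducin alpha subunit, was at 230 and 200 CPM in the P13 cones and at 6.19 and 4.04 CPM in the P7 cones. Its gene lies at chr9:107674474-107679712 on the minus strand of GRCm38. Gnat1 was the only member called with the pooled spread, the cone spread and the weighted fit, with a log2 difference of 5.42 ± 0.32 (pooled adjusted p = 4.03e-07) and a call in each fit that left out 1 of the 4 libraries. In rods Gnat1 was at 4581 and 5181 CPM at P13 and at 108 and 140 CPM at P7, a log2 difference of 5.31 ± 0.32. The cone level was 4.41% of the rod level at P13 and 4.14% at P7, and the change in cones minus that in rods was 0.11 ± 0.46 (adjusted p = 0.952).

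Slc24a1, the rod sodium-calcium-potassium exchanger, Pde6a, a rod phosphodiesterase subunit, and Cnga1, the rod channel subunit, were also higher in the P13 cones. Slc24a1 was at 53.8 and 46.2 CPM in the P13 cones and 5.18 and 3.69 CPM in the P7 cones (3.51 ± 0.28, cone-spread adjusted p = 0.0327). Pde6a was at 81.1 and 87.5 CPM at P13 and 24.2 and 14.7 CPM at P7, and Cnga1 at 145 and 126 CPM at P13 and 35.7 and 21.1 CPM at P7; both were called in the weighted fit alone (adjusted p = 0.00683 and 0.00293), in which leaving out 1 library kept the call of Pde6a in 0 of 4 fits and of Cnga1 in 2. The log2 differences in rods were 4.52 for Slc24a1, 2.60 for Pde6a and 1.45 for Cnga1, against 3.51, 2.16 and 2.30 in cones, and Cnga1 was not called in rods (adjusted p = 0.114). The cone level of these 3 genes was 5.0%, 6.07% and 3.8% of the rod level at P13, against 9.61%, 8.45% and 2.21% at P7.

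The rod regulators Nrl and Nr2e3 had log2 differences below 0 in both cell types, and none of these was called. Nrl, the leucine zipper factor that specifies rods, was at 35.7 and 38.4 CPM in the P13 cones and 59.97 and 33.96 CPM in the P7 cones, 5.38% and 4.45% of its rod level. Nr2e3, its target that represses cone genes, was at 69.7 and 43.3 CPM at P13 and 144 and 77.6 CPM at P7, 2.69% and 3.30% of its rod level. Other rod genes had more of their rod level in cones: Sag, the arrestin found in both photoreceptors, was at 5398 and 6175 CPM at P13 and 2952 and 2999.8 CPM at P7, 55.7% and 54.0% of rods. Nxnl1, which encodes rod-derived cone viability factor, was at 157 and 211 CPM at P13 and 49.1 and 45.1 CPM at P7. It was called with the cone spread (1.95 ± 0.19, adjusted p = 0.0327) and stood at 29.3% of the rod level at P13 and 15.3% at P7.

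Genes with at least 4-fold higher log-scale means in rods at both ages, and a change in rods of the same sign and at least 2-fold, were marked as following rods. These made up 84 of the genes tested, 4 of the 29 genes higher with the pooled spread, 3 of the 32 with the cone spread and 7 of the 76 in the weighted fit. On the lower side they made up 2 of the 30 genes called with the pooled spread and 0 of the 13 in the weighted fit. The marked genes lower with the pooled spread include a member of the 13 lower with both spreads. Gnat1, Kcnj14, Mgarp, Slc24a1, Pde6a, Cnga1 and Rdh12 were among those marked. At P30, 581 genes were higher in rods than in cones by a log2 difference of at least 3. Over these, the median log2 difference P13 minus P7 was -0.62 in cones and 0.10 in rods, and 329 of 581 had the same sign in both cell types. Their median cone level was 30.3% of the rod level at P13 (507 genes with a value) and 64.0% at P7 (486 genes). For the 20 of them with at least 100 CPM in rods at both younger ages, a minimum added after the data were seen that itself favours low shares, the median was 4.55% at P13 and 4.29% at P7. Whether rod RNA in the cone libraries accounts for these values was not tested.

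**Figure D3:**
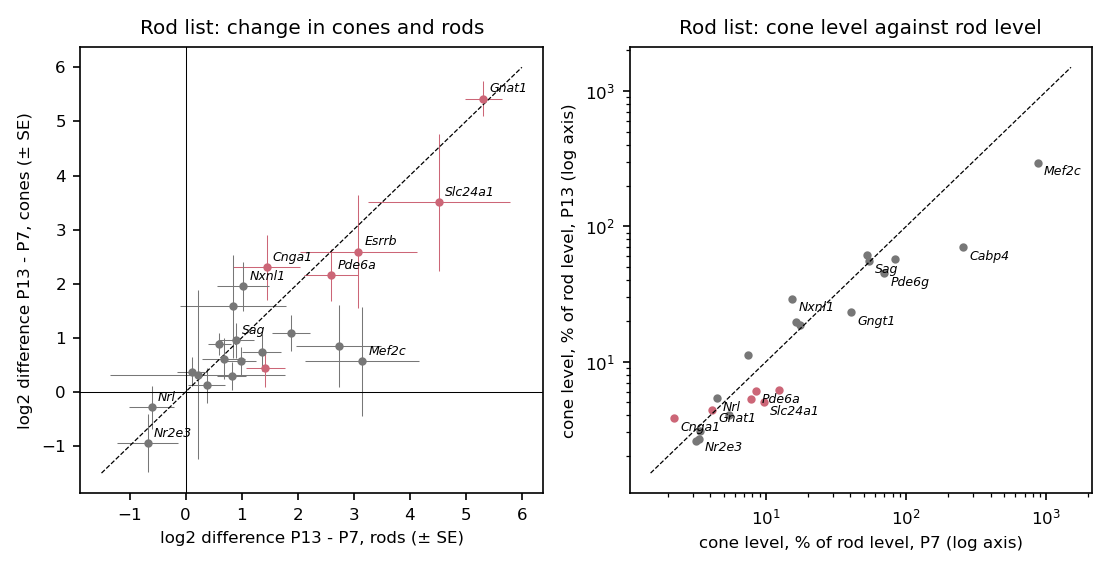
Left, log2 difference P13 minus P7 in cones (vertical) and rods (horizontal) for the 22 genes of the rod list, with SE bars from the pooled-spread fit; right, their level in cones as a percent of that in rods at P13 (vertical) and P7 (horizontal), on log axes. Genes marked as following rods are red; Gnat1 lies on the dashed line of equality in both panels, at 5.42 and 5.31 on the left and at 4.41% and 4.14% on the right.

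Shared photoreceptor genes, those used by rods and cones alike, leaned the same way. Of 30 tested, 21 had non-overlapping libraries on the higher side and 2 on the lower side, and the pooled spread called 1, the cone spread 2 and the weighted fit 6. Cplx4, a complexin of photoreceptor ribbon synapses, was at 425 and 416 CPM at P13 and 124 and 86.6 CPM at P7. It was called in all 3 fits (2.02 ± 0.28, pooled adjusted p = 0.00368) and in rods too, where its log2 difference was 2.19 ± 0.28. Without the second P7 library its pooled adjusted p was 0.0746. Rdh12, a retinol dehydrogenase of inner segments, was at 311 and 284 CPM at P13 and 85.8 and 123 CPM at P7 (1.53 ± 0.22, weighted adjusted p = 0.00622), and its call held in 1 of 4 weighted fits without a library.

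Outer segment and cilium genes had 22 of 40 members with non-overlapping libraries on the higher side and 3 on the lower side, with a median of 0.24 that turned to -0.12 with plain read totals. Rp1, which organises the outer segment axoneme, and Pcare, an actin regulator of disc formation, were called in the weighted fit. Rp1 was at 244 and 201 CPM at P13 and 105 and 111 CPM at P7 (1.04 ± 0.20, adjusted p = 0.0304), and Pcare at 186 and 176 CPM at P13 and 92.8 and 85.9 CPM at P7 (1.02 ± 0.20, adjusted p = 0.0344). Both lost the call whichever of the 4 libraries was left out, with adjusted p-values from 0.118 to 0.312 for Rp1 and from 0.194 to 0.274 for Pcare. Ribbon synapse genes had 18 of 40 members on the higher side and 6 on the lower side, and Cplx4 was the only member called in any fit; their median of 0.22 turned to -0.15 with plain read totals.

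Most mitochondrial genome transcripts rose with the pooled spread. All 10 measured had non-overlapping libraries on the higher side, with a median log2 difference of 2.07 in cones, which stayed at 1.71 with plain read totals, and of 1.77 in rods. The pooled spread and the weighted fit each called the same 7, mt-Cytb, mt-Nd1, mt-Nd2, mt-Nd4, mt-Nd5, mt-Nd6 and mt-Co1, and the cone spread called 0. Without the second P7 library, the pooled fit kept mt-Cytb and mt-Nd4 of these 7, and the adjusted p of the other 5 lay between 0.0595 and 0.198; mt-Nd5 also lost its call without the second P13 library (adjusted p = 0.105). mt-Cytb, the cytochrome b of complex III, was at 70138 and 70781 CPM at P13 and 16364 and 13494 CPM at P7 (2.25 ± 0.28, pooled adjusted p = 0.00245). mt-Nd4 of complex I was at 33649.6 and 36745 CPM at P13 and 7942 and 7704 CPM at P7 (2.17 ± 0.28, pooled adjusted p = 0.00254). The P30 cone libraries, which enter the cone spread, differed from each other, with 245741 and 156675 CPM for mt-Cytb. The fit of the 4 compared libraries, which holds no P30 library, did not call mt-Cytb either. Its adjusted p was 0.590 there and 0.639 with the cone spread. Why the cone spread called none was not tested. mt-Nd5 and mt-Nd6 overlap on opposite strands, and the library kit is not stated to keep strand, so reads within the overlap cannot be assigned to either.

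Of 53 nuclear genes of the respiratory chain tested, 0 were called in any of the 3 fits and the median was 0.12, which turned to -0.25 with plain read totals. Glycolysis and lactate genes had 14 of 31 members on the higher side and 3 on the lower side, with a median of 0.12 that turned to -0.24. The pooled spread called 0 members of this list, while the cone spread and the weighted fit each called 1 higher. Hk2, the hexokinase of photoreceptor aerobic glycolysis, was at 349 and 385 CPM at P13 and 225 and 197 CPM at P7, with an adjusted p of 0.239 with the cone spread and 0.454 with the pooled spread. Mgarp, a mitochondrial protein gene of no list, was at 240 and 234 CPM at P13 and 68.1 and 50.7 CPM at P7. It was called in all 3 fits (2.01 ± 0.20, pooled adjusted p = 0.000313), and its log2 difference in rods was 1.74 ± 0.20.

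The 7 genes called higher with both spreads were Dgkd, Gm15706, Mgarp, Cplx4, Sgk1, Cds1 and Gnat1. On GRCm38, Cds1 lies at chr5:101765130-101823858, Dgkd at chr1:87853287-87945180 and Sgk1 at chr10:21882184-21999903, each on the plus strand, and Mgarp at chr3:51388412-51396738 on the minus strand. Cds1, which makes CDP-diacylglycerol for phosphoinositide resynthesis, was at 146 and 136 CPM at P13 and 13.4 and 6.52 CPM at P7 (3.91 ± 0.68, pooled adjusted p = 0.0146). Dgkd, a diacylglycerol kinase, was at 789 and 671 CPM at P13 and 331 and 350 CPM at P7 (1.09 ± 0.21, pooled adjusted p = 0.0276). Sgk1, a kinase induced by serum and glucocorticoids, was at 31.5 and 29.5 CPM at P13 and 3.60 and 2.00 CPM at P7 (3.50 ± 0.65, pooled adjusted p = 0.0222). Gm15706, a long intergenic RNA, was at 181 and 174 CPM at P13 and 61.0 and 71.1 CPM at P7 (1.43 ± 0.23, pooled adjusted p = 0.00884). Cds1 and Gm15706 were called higher in rods too, with log2 differences of 3.41 ± 0.68 and 1.80 ± 0.23 (pooled adjusted p = 0.00328 and 0.00013). Dgkd was not called in rods (-0.42 ± 0.21, pooled adjusted p = 0.198). Sgk1 was called higher in rods, from no reads at P7. The pooled call of Dgkd also ended with plain read totals (0.73, adjusted p = 0.142), with totals without mitochondrial transcripts (0.93, adjusted p = 0.0999) and with no intensity trend (adjusted p = 0.0713). Dgkd overlaps Usp40 on the opposite strand, and Cds1, Dgkd and Sgk1 lost their pooled call whichever of the 4 libraries was left out (adjusted p from 0.0529 to 0.248). Gm15706 kept its call only without the second P13 library.

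Drd4 was called with the pooled spread (4.67 ± 0.61, adjusted p = 0.00254, also without any 1 library) and in the weighted fit, but not with the cone spread (adjusted p = 0.109). Its P13 libraries were 2.16-fold apart and its P7 libraries 3.42-fold apart. In rods Drd4 was at 564 and 749 CPM at P13 and 2.63 and 1.71 CPM at P7, a log2 difference of 8.26 ± 0.61, and the cone level at P30 was 75.8 and 149 CPM. Amy1 and Plk5 were chosen after their values were seen. Amy1, an amylase gene, was at 998 and 816 CPM at P13 and 224 and 352 CPM at P7 (1.69 ± 0.25, pooled adjusted p = 0.00447). Its adjusted p was 0.105 without the first P7 library and 0.0517 without the first P13 library. Plk5, a polo-like kinase gene, was at 224 and 201 CPM at P13 and 65.0 and 20.5 CPM at P7 (2.54 ± 0.38, pooled adjusted p = 0.00419). Neither Amy1 nor Plk5 was called with the cone spread (adjusted p = 0.093 and 0.217). Both were called in the weighted fit (adjusted p = 0.00293 and 0.0076). Amy1 overlaps Rnpc3 on the same strand. In rods the log2 difference was 1.76 ± 0.25 for Amy1 and 1.22 ± 0.38 for Plk5, and both were called higher (pooled adjusted p = 0.000337 and 0.0377).

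Several genes were called only with a spread from cones, and were chosen for the text after their values were seen. En2, an engrailed homeobox gene, was at 124 and 107 CPM in the P13 cones and 12.3 and 6.51 CPM in the P7 cones (3.69 ± 0.33, cone-spread adjusted p = 0.0327). Mt1, which encodes a metal-binding metallothionein, was at 1710 and 2042 CPM at P13 and 657 and 646 CPM at P7 (1.52 ± 0.16, cone-spread adjusted p = 0.036). Both kept their weighted call without any 1 library, and both were at 1.65 CPM or less in each rod library of P13 and P7. Kcne2, a potassium channel accessory subunit, was at 2735 and 2641 CPM at P13 and 986 and 1385 CPM at P7 (1.20 ± 0.16, weighted adjusted p = 0.00423), and was at 3.06 CPM or less in each rod library of those ages. Gckr, the glucokinase regulator, was at 923 and 822 CPM at P13 and 431 and 389 CPM at P7 (1.09 ± 0.13, cone-spread adjusted p = 0.0466). In rods Gckr was at 17.6 and 13.5 CPM at P13 and 0.562 and 0 CPM at P7 and was called higher too (adjusted p = 0.000572). Kcne2 and Gckr each kept the weighted call in 1 of 4 fits without a library.

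Some called genes lie beside a more abundant cone gene on the opposite strand, so their reads cannot be assigned with certainty. Tex28 ends 183 bases from the end of Opn1mw, on the other strand of the X chromosome. It was at 109 and 146 CPM at P13 and 6.93 and 2.27 CPM at P7, which was 3.92% and 3.76% of Opn1mw at P13 and 2.81% and 2.31% at P7, and it had no reads in rods at either age. Calu, a calcium-binding protein gene that overlaps Opn1sw, was at 1382 and 914 CPM at P13 and 388 and 455 CPM at P7 (1.42 ± 0.21, pooled adjusted p = 0.00419). Its adjusted p was 0.0845 without the first P7 library and 0.0517 without the first P13 library. The Calu level was 18.4% and 13.2% of Opn1sw at P13 and 10.3% and 11.5% at P7. Calu was not called with the cone spread (adjusted p = 0.133) and was called in the weighted fit (adjusted p = 0.00625).

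Genes of immature neurons and axon growth were lower at P13. Of 31 tested, 20 had non-overlapping libraries on the lower side and 2 on the higher side, and the median log2 difference was -0.81 in cones and -1.41 in rods. The pooled spread called 1 member, the cone spread 0 and the weighted fit 3. Marcks, a protein kinase C substrate of growing neurites, was at 129 and 102 CPM at P13 and 384 and 471 CPM at P7 (-1.89 ± 0.30, pooled adjusted p = 0.00798). Its pooled call held in 1 of the 4 fits without a library. Stmn1, a microtubule destabiliser, was at 59.0 and 79.0 CPM at P13 and 187 and 234 CPM at P7 (-1.62 ± 0.28, weighted adjusted p = 0.018). Tubb2b, a tubulin of newborn neurons, was at 12.8 and 10.4 CPM at P13 and 63.7 and 86.3 CPM at P7 (-2.68 ± 0.38, weighted adjusted p = 0.00622). Without 1 library, the weighted call held in 0 of 4 fits for Stmn1 and 1 of 4 for Tubb2b.

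Outside that list, Meg3 had the steadiest fall. Meg3, an imprinted long noncoding RNA, was at 674 and 737 CPM at P13 and 2070 and 2055 CPM at P7, and at 143 and 98.3 CPM at P30. Its log2 difference was -1.55 ± 0.15 in the weighted fit (adjusted p = 0.000669, called without any 1 library), while its adjusted p was 0.0647 with the cone spread. Chrnb4 and Chrna3, which encode nicotinic acetylcholine receptor subunits, fell in the weighted fit as well. Chrnb4 was at 256 and 141 CPM at P13 and 493 and 710 CPM at P7 (-1.63 ± 0.27, adjusted p = 0.0125), and Chrna3 at 28.3 and 17.1 CPM at P13 and 73.7 and 141 CPM at P7 (-2.21 ± 0.42, adjusted p = 0.0323). Chrnb4 kept its call in 2 of the 4 fits without a library and Chrna3 in 1. Meg3, Chrnb4 and Chrna3 were chosen for the text after their values were seen.

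Arhgap31, a GTPase-activating protein for Rac and Cdc42, was at 113 and 102 CPM at P13 and 253 and 260 CPM at P7 (-1.26 ± 0.19, pooled adjusted p = 0.00447). Thra, the other thyroid hormone receptor gene, was at 56.8 and 65.3 CPM at P13 and 148 and 115 CPM at P7 (-1.10 ± 0.19, pooled adjusted p = 0.0146), with the same log2 difference in rods within error, -1.08 ± 0.19. Thra overlaps Nr1d1 on the opposite strand. With the cone spread, neither Arhgap31 (adjusted p = 0.0953) nor Thra (adjusted p = 0.234) was called. In the weighted fit Arhgap31 was called (adjusted p = 0.0125) and Thra was not (adjusted p = 0.0856). The adjusted p of Arhgap31 was 0.0556 and 0.0746 without the first or second P7 library, and that of Thra 0.222 and 0.0991 without the first P7 or first P13 library. Arhgap31 and Thra belong to no list and were chosen after their values were seen, among the 12 genes lower with the pooled spread that still had reads at P13.

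**Figure D4:**
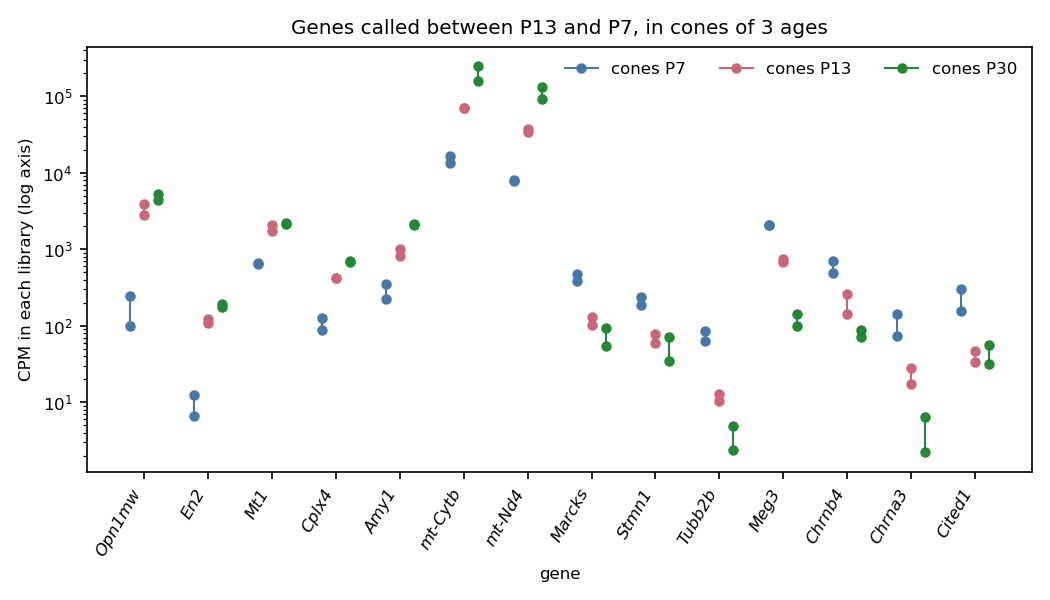
CPM (log axis) of 14 genes called in at least 1 fit, in each of the 2 cone libraries at P7, P13 and P30 (left to right within a gene), with a line joining the libraries of an age. Opn1mw, En2 and mt-Cytb are higher and Meg3, Tubb2b and Chrna3 lower at P13 than at P7, and the P30 libraries lie further in the same direction.

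The remaining lower calls were of genes with no reads at P13. Of the 30 genes lower with the pooled spread, 18 had no reads in either P13 library, as did all 101 lower with the cone spread and all 13 lower with both. Of the 101, 100 also had no reads at P30, so both ages shared 1 floor value and their spread was 0. The 13 genes had averages from 0.266 to 2.81 CPM at P7. Against the floor of 3 reads over both P13 libraries (0.0364 CPM) they were at least 7.29-fold to at least 77.1-fold lower. Asxl3, a Polycomb-related gene, had the highest P7 average, and was named after its value was seen. The weighted fit tested 18 of the 101 and called 0 of them, and no pooled or cone-spread gene was higher with 0 reads at P7.

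Guidance receptors and ligands were lower at P13 in 17 of 42 members with non-overlapping libraries, and higher in 3, with a median of -0.92; 1 was called with the pooled spread, Sema4a, at no reads in P13 cones and 0.559 and 0.577 CPM in P7 cones. Cytosolic ribosomal protein genes were lower by a small amount in most members, with 26 of 41 non-overlapping on the lower side, 0 on the higher side and a median of -0.25, and none was called. Chromatin regulators had 12 of 34 on the lower side and 4 on the higher side with a median of -0.21, and none was called. In the Wnt and planar polarity list, 4 of 29 were on the higher side and 9 on the lower side. Wnt5b had no reads in the P13 cones and 0.54 and 1.05 CPM in the P7 cones, and Wnt5a was at 0.0927 and 0.663 CPM at P13 and 2.50 and 2.04 CPM at P7. Their receptor Ryk was at 51.4 and 56.8 CPM at P13 and 66.6 and 55.3 CPM at P7, with overlapping libraries. Immediate early and stress genes had 14 of 33 on the lower side and 4 on the higher side with a median of -0.46. The cone spread called 1 of them lower, and the pooled spread and the weighted fit called 0. Egr1 and Fos were uneven between P7 libraries: Egr1 was at 476 and 226 CPM at P13 and 775 and 1876 CPM at P7, and Fos at 43.5 and 34.5 CPM at P13 and 67.2 and 126 CPM at P7.

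**Figure D5:**
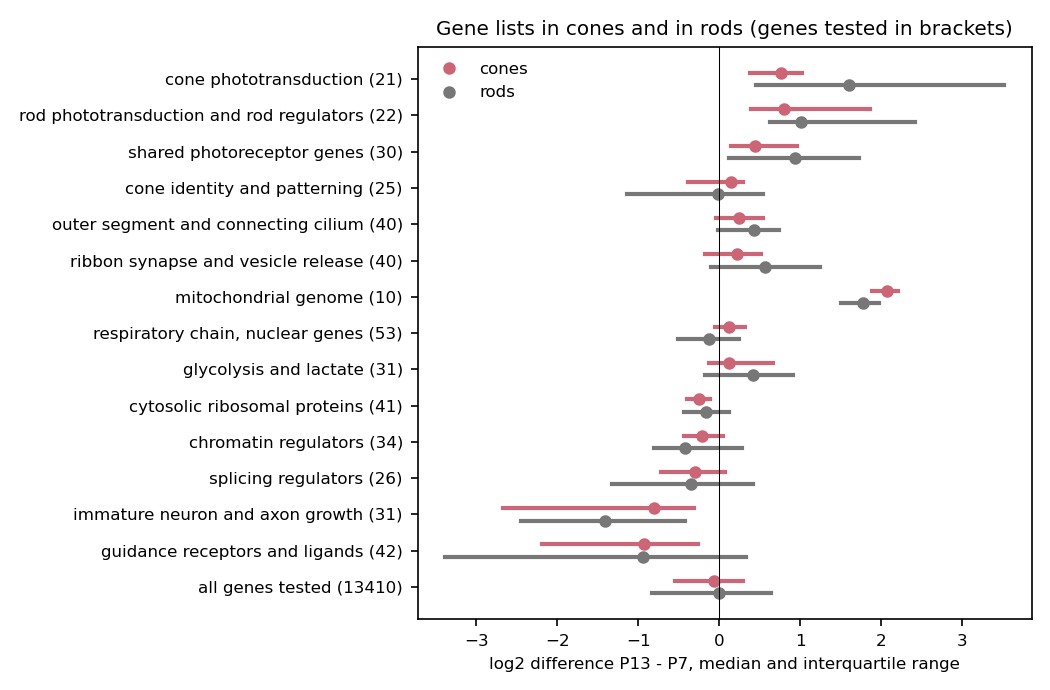
Median (point) and interquartile range (line) over genes of the log2 difference P13 minus P7 for 14 gene lists and all genes tested, in cones (red) and rods (grey), with the number of genes tested in brackets. The mitochondrial genome list lies highest in cones at 2.07, the photoreceptor lists lie above the all-gene median of -0.06, and the immature neuron and guidance lists lie below it.

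Markers of several other cell types differed between libraries of the same age. The summed level of 24 bipolar markers was 453 and 645 CPM at P13 and 910 and 507 CPM at P7. The summed level of 12 microglia markers was 11.2 and 103 CPM at P13 and 12.5 and 6.67 CPM at P7, and that of 5 red blood cell genes was 6.38 and 0.586 CPM at P13 and 114 and 5.21 CPM at P7. The 19 Muller glia markers summed to 909 and 761 CPM at P13 and 753 and 779 CPM at P7. The 14 amacrine markers summed to 279 and 410 CPM at P13 and 380 and 312 CPM at P7, and the 14 ganglion cell markers to 166 and 176 CPM at P13 and 153 and 176 CPM at P7. The 7 horizontal cell markers summed to 279.8 and 249 CPM at P13 and 403 and 380.3 CPM at P7. The 22 rod genes summed to 14987 and 15359.9 CPM at P13 and 8155 and 8308 CPM at P7. Of these 22, 17 had non-overlapping libraries on the higher side and 1 on the lower side. Much of the P13 sum came from Sag and Pde6g, which averaged 5786 and 2783 CPM in the P13 cones. Those 2 stood at 55.7% and 45.1% of their rod level at P13. The means of Nrl and Nr2e3 were lower at P13 than at P7. The defining bipolar markers Grm6 and Cabp5 were at 20.1 and 23.1 CPM and at 304 and 262 CPM in the P13 cones, against 31.5 and 1.84 CPM and 205 and 217 CPM in the P7 cones. The part of these cells in the gene differences was not tested.

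Changes in cones were set against those in rods over the same days with an interaction term in the pooled fit, which called 203 genes (1.51% of genes tested), 104 with a larger log2 difference in cones and 99 with a smaller one. Of the 29 genes higher in cones with the pooled spread, 24 were also called higher in rods and 0 lower, and 4 had a called difference between the cell types. Those 4 were Sgk1, Dgkd, Calu and Mir124-2hg. Gngt2 fell in rods, to 7.84 and 22.01 CPM at P13 against 319 and 265 CPM at P7, so its change in cones exceeded that in rods by 5.34 ± 0.59 (adjusted p = 0.000177). Gnb3 likewise stood at 85.0 and 122 CPM at P13 and 295 and 408 CPM at P7 in rods, a difference between cell types of 2.20 ± 0.32 (adjusted p = 0.0014). Guca1b went the other way, with 676 and 696 CPM at P13 and 7.80 and 10.4 CPM at P7 in rods, and a difference of -5.90 ± 0.69 (adjusted p = 0.000339). The count of 203 fell to 27 when only the 12 rod and cone libraries were fitted.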

How the data were processed

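RNA of sorted mouse retinal cells was sequenced in 22 libraries, 2 in each of 11 groups of cell type and age. The submitters' processing notes name STAR, edgeR and the build GRCm38 (mm10), without versions. Counter, annotation and filters were not given in the sources used here. As deposited by the authors, the table holds log2 CPM of 13812 genes, already scaled by effective library size; genes with no reads share 1 floor value. Taking off that floor gave whole reads within 0.01 for 100% of values, 14403312 to 54384385 per library, and effective sizes of 0.878 and 0.880 times the totals in the P13 cones and 1.18 and 1.09 in the P7 cones. GENCODE M21 gave symbols to 13790 genes, and the other 22 were left out. Some genes are not reported here.

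limma 3.58.1 in R 4.3.3 was fitted to the deposited log2 values with 1 coefficient per group and an intensity trend. Testing was limited to the 13410 genes for which some group had both libraries at a log2 CPM of 0 or more. The pooled-spread fit had 11 residual degrees of freedom and the cone-spread fit 3, and in each the contrast was P13 minus P7. The weighted fit used limma's voom on recovered reads and effective sizes, for 11400 genes with log2 CPM of at least 0 in both libraries of either cone age. Fold changes of genes near the floor depend on that floor value. Data were simulated for this contrast over 13770 genes, with the same dispersion for every gene. Among genes above 4 CPM at P7, 100 were changed 4-fold and 100 8-fold, in either direction. Changes of 4-fold were recovered at 59% with the pooled spread, 4% with the cone spread and 67% in the weighted fit. For 8-fold the shares were 99%, 20% and 99%, and 20, 20 and 6 unchanged genes were called. The 13 genes lower with both spreads lay below 4 CPM at P7, so these shares do not cover them.

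The members, the gene lists and the tests were chosen with earlier results of these data known. The genes to name were the 15 largest rises and 15 largest falls among those called with both spreads, with non-overlapping libraries and a mean log2 CPM of at least 3 in the higher group; up to 8 members per list with the largest change among those called with the pooled spread, and any member of the cone phototransduction, rod and cone identity lists; and a fixed set of 21 genes. Some of these were left out, and every other gene named was chosen after its values were seen. Replicate numbers are not stated to pair libraries. Counts of 0 reads allow up to 3 reads, and floors cover counting error only. Alternatives covered the libraries fitted, scaling, filters, the log offset, weights, a replicate block and leaving out each library.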

Additional observations from a re-analysis of the deposited data

Results flagged for a closer look

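For 12 genes named in the text, the change from P7 to P13 differed between cones and rods in the interaction test of the pooled fit (adjusted p under 0.05). Values are the cone log2 difference minus the rod log2 difference, with SE.

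The log2 difference was higher in cones than in rods for Gngt2 (5.34 ± 0.59), Gnb3 (2.20 ± 0.32) and Dgkd (1.51 ± 0.30). It was also higher in cones for Calu (1.76 ± 0.30), Arhgap31 (2.15 ± 0.27) and Rxrg (11.41 ± 2.38). Gngt2, Gnb3, Dgkd and Calu had higher means at P13 than at P7 in cones and lower means in rods. Arhgap31 was at 48.8 and 60.6 CPM in rods at P13 and 506 and 653 CPM in rods at P7. Rxrg had 0 and 0.0252 CPM in rods at P13 and 27.0 and 52.5 CPM at P7, so its value rests on the floor and gives no fold.

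The log2 difference was lower in cones than in rods for Guca1b (-5.90 ± 0.69), Hk2 (-2.29 ± 0.48) and Mir124-2hg (-1.41 ± 0.28). It was also lower in cones for Egr1 (-5.44 ± 1.27), Sgk1 (-7.76 ± 0.92) and Asxl3 (-10.36 ± 1.46). Egr1 and Asxl3 had lower means at P13 than at P7 in cones and higher means in rods. Hk2 was at 48.6 and 47.5 CPM in rods at P13 and 7.84 and 4.03 CPM at P7. Mir124-2hg, the host transcript of a neuronal microRNA, was at 1365 and 1000.2 CPM at P13 and 501 and 570.1 CPM at P7 in cones, and at 4161 and 3900 CPM at P13 and 822 and 583 CPM at P7 in rods. Egr1 was at 274 and 372 CPM in rods at P13 and 28.4 and 25.7 CPM at P7. Sgk1 had no reads in rods at P7 and Asxl3 none in cones at P13, so these 2 values rest on the floor.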

How the results depend on the processing

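The counts of called genes moved with the processing. Of 453 gene and alternative pairs, 393 kept the call. Directions could hardly differ: many alternatives left the log2 difference itself unchanged, and calls needed one of at least 1. Plain read totals moved the median of all genes by only -0.37. That 0 of the 27 named genes called with the pooled spread reversed is therefore no support for their directions. Counts are given as higher and lower at P13. The fit of the 4 compared libraries called 0 and 0 genes (1741 at an unadjusted p under 0.05), for both spreads as well, and voom called 107 and 43 there. With the pooled fit, the counts of 29 and 30 became 46 and 94 with array weights, 58 and 37 with log2 of (CPM + 1), 31 and 65 with no intensity trend, 22 and 88 with plain totals, 28 and 18 with the filter on the cone groups, 27 and 7 with at least 1 read in each library (added after seeing the data), 32 and 101 with the cone libraries and, by voom, 122 and 64 on all libraries and 76 and 13 on the cone libraries. The 7 and 13 called with both spreads became 15 and 34 with array weights, 1 and 31 with no intensity trend, 1 and 23 with plain totals, 4 and 15 without mitochondrial transcripts in the totals, 1 and 0 with log2 of (CPM + 1), 6 and 0 with either of those filters. The weighted fit of 76 and 13 became 34 and 29 with plain totals, 49 and 17 without mitochondrial transcripts in the totals, 32 and 2 with all genes of the main filter, 122 and 64 on all libraries and 107 and 43 on 4 libraries. The difference from rods, 104 and 99, became 11 and 16 on 12 libraries, 2 and 1 on 8 and 49 and 24 with array weights. The causes were not tested. Leaving out 1 library gave 10 to 21 and 5 to 39 with the pooled spread, 0 to 4 and 0 to 3 with both, 17 to 35 and 1 to 9 in the weighted fit and 40 to 74 and 36 to 96 for the difference from rods; 60 of 108 gene and library pairs kept the call. Replicate numbers did not pair the libraries (correlation of deviations -0.14): the replicate block gave 32 and 27 genes, 0 and 0 with both spreads and 107 and 91 for the difference from rods. With the crossed pairing, added after seeing the data, the counts were 31 and 26, 0 and 0, and 100 and 88. Each age had 2 libraries of 44577611 to 50807112 reads.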

Other observations

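A linker and a core histone gene, Hist1h1c and Hist1h2bc, were among the genes higher with the pooled spread. Hist1h1c was at 176 and 126 CPM in the P13 cones and 39.0 and 52.4 CPM in the P7 cones (1.72 ± 0.27, pooled adjusted p = 0.00768). Hist1h2bc was at 38.3 and 46.6 CPM at P13 and 10.01 and 11.99 CPM at P7 (1.95 ± 0.35, pooled adjusted p = 0.0163). Hist1h1c was also called in the weighted fit (adjusted p = 0.00953) and Hist1h2bc was not (adjusted p = 0.0547), and neither was called with the cone spread. With the pooled spread, Hist1h1c lost its call without the first P7 or first P13 library (adjusted p = 0.155 and 0.0826) and Hist1h2bc whichever of the 4 was left out (adjusted p from 0.0566 to 0.204).

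Jag1, which encodes a Notch ligand, was at 91.6 and 105 CPM at P13 and 34.7 and 39.2 CPM at P7 (1.41 ± 0.24, weighted adjusted p = 0.018). Il18, an interleukin gene, was at 61.9 and 56.4 CPM at P13 and 12.4 and 14.6 CPM at P7 (2.13 ± 0.32, weighted adjusted p = 0.00741). Neither kept its weighted call in any of the 4 fits without a library (adjusted p from 0.110 to 0.235 for Jag1 and from 0.0546 to 0.167 for Il18). Both were also called with the cone spread and not with the pooled spread (adjusted p = 0.06 for Jag1 and 0.78 for Il18). The P13 libraries did not overlap the P7 libraries for any of these 4 genes, which were chosen after their values were seen.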
